A study of Mus musculus with 12 samples.

Results

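The transcripts described here are those of 8 transcription factor genes that mark pancreas, duct and gut endoderm identity: Pdx1, Sox9, Hnf4a, Foxa1, Foxa2, Gata4, Gata6 and Onecut2. They were picked by gene name from the raw count table and are 8 of its 57186 genes. The rule that picks them uses no measured value, although it was proposed with earlier results of these data known. Each of the 8 had counts in every library and passed the filter on low counts, which left 15165 genes for the tests.

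RNA of 3 mouse pancreatic tumor cell lines, DDKC_9750, DDKC_9790 and DDKC_9804, was sequenced without treatment and after treatment with rDKK3, the recombinant soluble form of the secreted protein DKK3, with 2 libraries per combination of line and condition. The genotype is the same in every group, treated and untreated: a Dkk3 knockout on both alleles and Ptf1a Cre/+. The Dkk3 knockout is present in all tissues of the mice, and Ptf1a, which drives Cre, restricts recombination largely to the pancreas. The comparisons ask how far the lines differ in these factors and whether rDKK3 moved them. Neither the concentration of rDKK3 nor the duration of its addition is given for these RNA samples in the sources used here, and each line stands for 1 tumor.

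During development, FOXA and GATA factors open chromatin in the gut endoderm, HNF4A and the ONECUT factors act in a network of hepatocyte nuclear factors, and PDX1 and SOX9 mark the pancreatic progenitors. In the adult, PDX1 becomes restricted largely to beta cells and SOX9 to duct cells. In pancreatic cancer, GATA6, HNF4A, FOXA1 and FOXA2 are associated with the classical, better differentiated subtype, and their loss with the basal or squamous one.

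Total counts per library ran from 7520741 to 24541083 (median 14250180) in untreated and from 3822987 to 11567095 (median 6579895.5) in treated cells. In DDKC_9750 and DDKC_9804 both treated libraries were shallower than both untreated ones, so depth and treatment move together there. The 2 libraries of a line and condition carry a lower and a higher library number. With a gene-wise shift between these numbers fitted, they differed by less than sampling noise (mean deviance 0.764 per degree of freedom over 12979 genes, against 6.39 without the shift). They were summed and counted as 1 sample, which gives 6 samples and n = 3 lines per condition. Nothing in the labels says that these libraries came from separate cultures, so tests that use them as replicates measure only the spread between libraries. Dkk3 itself had 0 counts in every library but 1, a treated library of DDKC_9750 with 1 count.

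The tissue label was checked against epithelial markers. Krt18, a keratin of simple epithelia, ranged from 859 to 3568 CPM (counts scaled to the library size, with TMM factors), and Cdh1, the epithelial cadherin, from 310 to 1048 CPM. Epcam, another epithelial marker, stood at only 0.411 to 2.04 CPM. Of the 9 fibroblast, 6 leukocyte, 4 endothelial, 9 acinar and 7 endocrine markers, 5, 1, 1, 1 and 0 passed the filter, and Ptprc, the pan-leukocyte gene, had at most 3 counts in any library. Of those that passed, Acta2, a smooth muscle and myofibroblast actin, was at 38.1 CPM untreated and 127 CPM treated in DDKC_9750 and at most 0.371 CPM in the other lines (edgeR adjusted p = 0.00592 for rDKK3 with 12 libraries and 0.637 on summed counts). Pdpn, a fibroblast marker, had 8 counts untreated and 44 treated in DDKC_9750 and at most 1 in the other samples (edgeR adjusted p = 0.00155 with 12 libraries and 0.578 on summed counts). Cd68, a macrophage and lysosomal gene, was at 23.2 and 38.1 CPM in DDKC_9790 and between 2.03 and 6.73 CPM in the others, and was higher with rDKK3 in each line (log2 fold change 0.87, edgeR adjusted p = 0.00142 with 12 libraries and 0.578 on summed counts). The 3 other tested fibroblast markers did not pass for rDKK3 in either fit. Untreated and treated in that order, Col1a1 was at 11.2 and 6.70 CPM in DDKC_9750, and Pdgfrb at 4.34 and 0.493 CPM in DDKC_9804. Pdgfra was at 1.70 and 0.680 CPM in DDKC_9750, 5.76 and 6.98 CPM in DDKC_9790, and 0.827 and 4.27 CPM in DDKC_9804. Kdr and Cela1, of the endothelial and acinar lists, reached 17.3 and 11.7 CPM. The part of these markers in the results was not tested.

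Compared per kilobase of the canonical transcript, Sox9 and Hnf4a had the highest mean level over the 6 samples, at 48.9 and 48.1 CPM per kb. Pdx1 followed at 40.4, Foxa2 at 31.9 and Onecut2 at 18.7 CPM per kb. Gata6 (9.05), Gata4 (6.80) and Foxa1 (5.60 CPM per kb) were the lowest. The ranges of every pair of neighbours in this order overlapped, so the order is that of the means alone. It also changed with the line. Hnf4a ranked first in both samples of DDKC_9750 and DDKC_9790 and Sox9 in both samples of DDKC_9804, while the last place went to Gata6 in DDKC_9750, Foxa1 in DDKC_9790 and Gata4 in DDKC_9804.

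**Figure D1:**
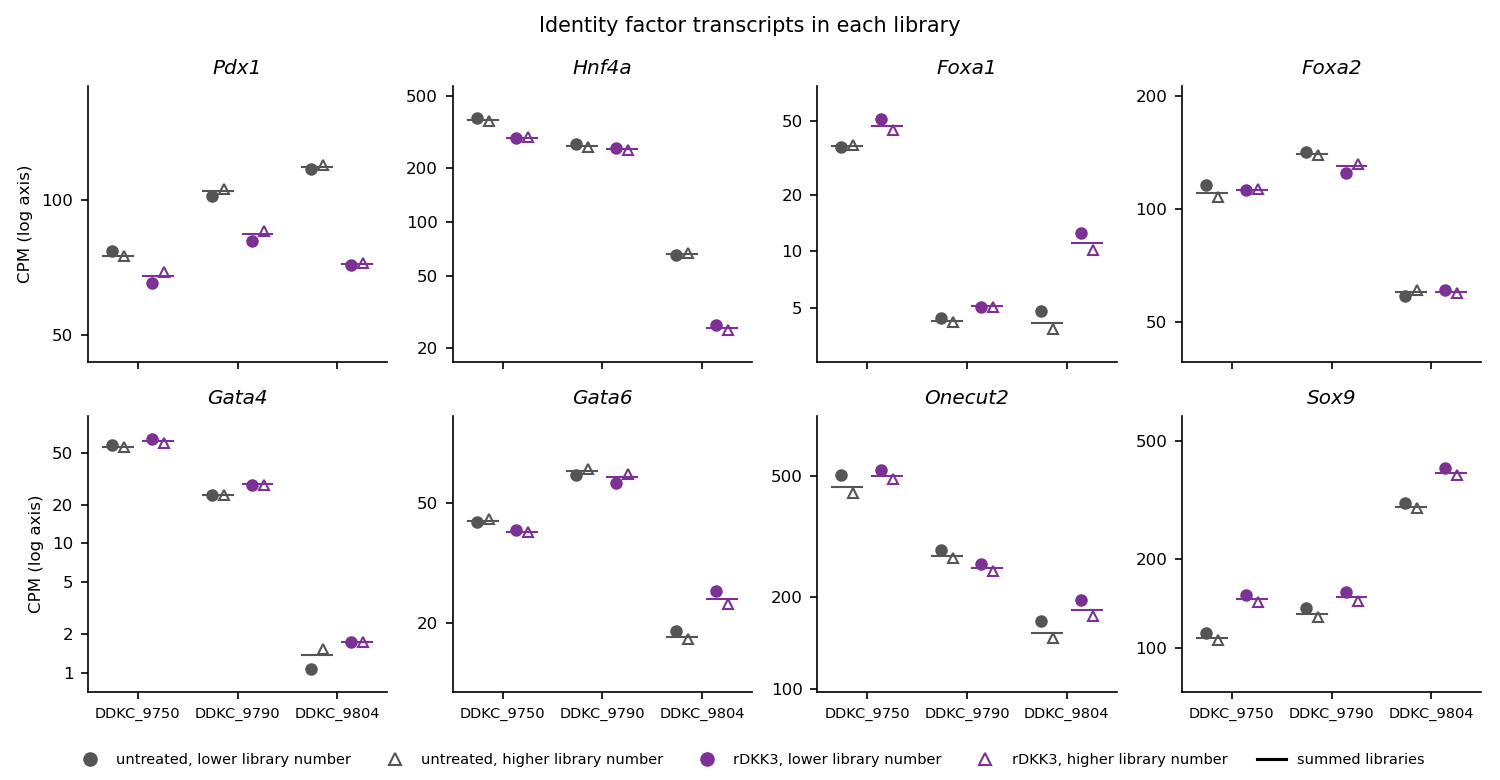
CPM on log axes for the 8 factors in the 3 lines; circles are libraries of lower and triangles of higher number, grey untreated and purple rDKK3, and short lines the summed libraries. The libraries of a sample lie close together, and for every factor but Pdx1 the range over lines is wider than the shift with rDKK3 within any line.

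The factors differed between lines, with Pdx1 as the exception. In edgeR's quasi-likelihood test between lines, with treatment as covariate and p-values adjusted over all genes by Benjamini and Hochberg, 7 of the 8 factors passed an adjusted p of 0.05, where 35.3% of all tested genes passed. The median log2 difference between the highest and the lowest line was 1.55 for the 8 factors and 0.76 for all tested genes. The treated and the untreated sample of a line serve as its 2 samples in this test, which leaves 2 residual degrees of freedom before moderation.

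**Figure D2:**
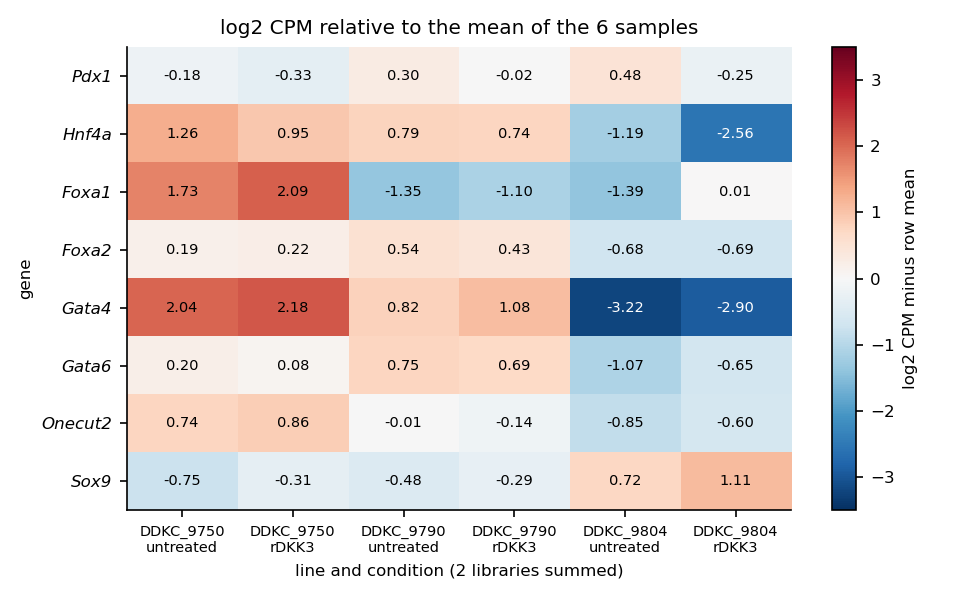
Log2 CPM (prior count 2) of each factor in the 6 summed samples, minus the mean of its row; red is above and blue below that mean. The 2 columns of DDKC_9804 are blue for Hnf4a, Foxa2, Gata4, Gata6 and Onecut2 and red for Sox9, and Gata4 spans from -3.22 to 2.18.

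FOXA1 and FOXA2 are forkhead pioneer factors that bind compacted chromatin. Foxa1 lies on the minus strand at chr12:57587414-57593702 and Foxa2 on the minus strand at chr2:147884797-147888889 (GRCm39, as are all gene positions here). Foxa1 was at 36.7 CPM untreated and 47.2 CPM treated in DDKC_9750, at 4.26 and 5.08 CPM in DDKC_9790, and at 4.14 and 11.1 CPM in DDKC_9804. Both samples of DDKC_9750 lay above the 4 others. Foxa1 was higher in DDKC_9750 than in DDKC_9790 by 3.16 on the log2 scale (SE 0.35, edgeR adjusted p = 0.00746) and than in DDKC_9804 by 2.59 (SE 0.34, adjusted p = 0.0102).

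Foxa2 was at 110 and 113 CPM in DDKC_9750, 141 and 130 CPM in DDKC_9790, and 60.3 and 60.2 CPM in DDKC_9804, untreated and treated in that order. Both samples of DDKC_9804 lay below the 4 others, whereas for Foxa1 the difference between DDKC_9790 and DDKC_9804 did not pass (edgeR adjusted p = 0.275). DDKC_9804 lay below DDKC_9790 by 1.17 (SE 0.13, edgeR adjusted p = 0.00745) and below DDKC_9750 by 0.89 on the log2 scale (SE 0.13, adjusted p = 0.0126). Per kilobase, Foxa2 exceeded Foxa1 in all 6 samples, with untreated ratios of 3.02 in DDKC_9750, 33.2 in DDKC_9790 and 14.7 in DDKC_9804.

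GATA4 and GATA6 are zinc finger factors that act together in pancreas formation. Gata4 lies on the minus strand at chr14:63436371-63509141 and Gata6 on the plus strand at chr18:11052064-11085635. Gata4 was at 56.0 and 61.6 CPM in DDKC_9750 and at 23.9 and 28.7 CPM in DDKC_9790. In DDKC_9804 it was at 1.37 CPM untreated (48 counts, 95% exact Poisson interval 1.01 to 1.82, counting error only) and 1.72 CPM treated (21 counts, 1.07 to 2.64). The 3 lines did not overlap. DDKC_9750 exceeded DDKC_9804 by 5.26 (SE 0.19, edgeR adjusted p = 0.000852) and DDKC_9790 by 1.17 on the log2 scale (SE 0.15, adjusted p = 0.00948), and DDKC_9790 exceeded DDKC_9804 by 4.09 (SE 0.18, adjusted p = 0.00181).

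Gata6 was at 43.4 and 40.1 CPM in DDKC_9750, 63.6 and 60.9 CPM in DDKC_9790, and 18.0 and 24.0 CPM in DDKC_9804. DDKC_9804 was again the lowest line, below DDKC_9790 by 1.58 (SE 0.19, edgeR adjusted p = 0.00875) and below DDKC_9750 by 1.01 on the log2 scale (SE 0.19, adjusted p = 0.024). The difference of 0.57 between DDKC_9790 and DDKC_9750 did not pass (SE 0.18, adjusted p = 0.0728). Per kilobase, the untreated ratio of Gata6 to Gata4 was 0.715 in DDKC_9750, 2.46 in DDKC_9790 and 12.1 in DDKC_9804, so that Gata4 was the higher of the pair in DDKC_9750 alone. The antisense gene Gata6os had 16 to 89 counts per library, and the counting was strand-specific.

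**Figure D3:**
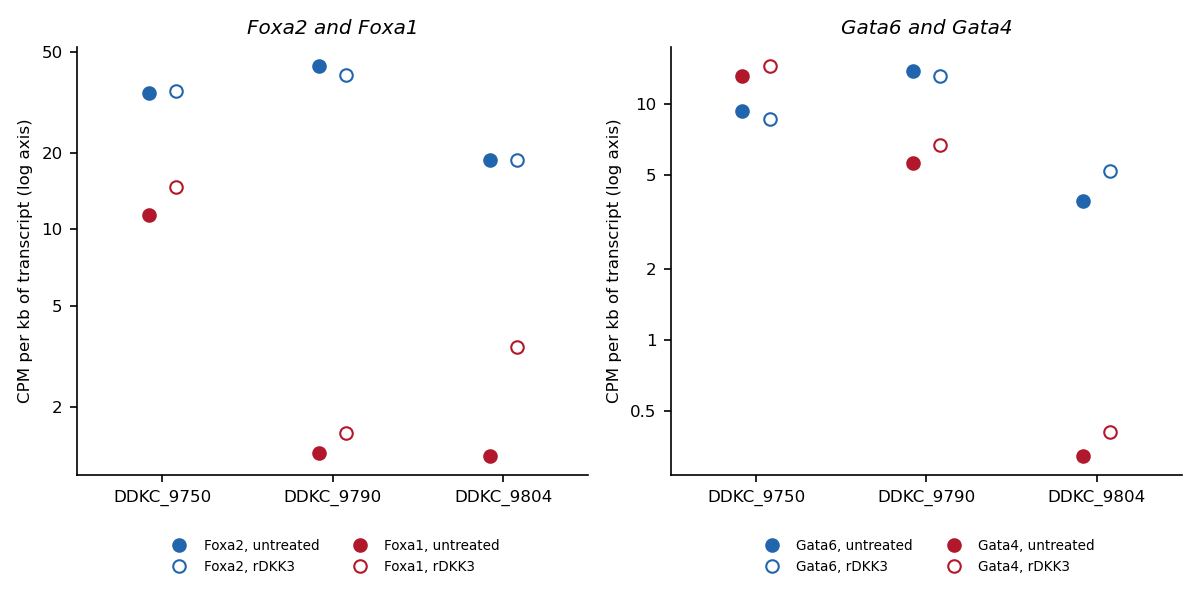
CPM per kb of canonical transcript on log axes for the FOXA pair (left) and the GATA pair (right) in the 3 lines; filled points are untreated and open points rDKK3, each 2 libraries summed. Foxa2 lies above Foxa1 in all samples, while Gata4 lies above Gata6 in DDKC_9750 and below it in the other lines.

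HNF4A is a nuclear receptor family factor that sets liver, gut and pancreatic epithelial gene programs, and its gene has an upstream promoter used in pancreas and a downstream one used in adult liver. Hnf4a lies on the plus strand at chr2:163348728-163414830. It was at 365 and 293 CPM in DDKC_9750, 263 and 255 CPM in DDKC_9790, and 66.8 and 25.7 CPM in DDKC_9804. Both samples of DDKC_9804 lay below the 4 others, by 2.92 on the log2 scale against DDKC_9750 (SE 0.35, edgeR adjusted p = 0.0087) and by 2.60 against DDKC_9790 (SE 0.35, adjusted p = 0.0115). The antisense gene Hnf4aos had at most 3 counts in any library.

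ONECUT2 is a cut homeodomain factor of the hepatic and pancreatic endoderm, and Onecut2 lies on the plus strand at chr18:64473091-64534058. It was at 460 and 500 CPM in DDKC_9750, 273 and 250 CPM in DDKC_9790, and 153 and 181 CPM in DDKC_9804, with no overlap between lines. All 3 pairs of lines differed in edgeR's test, by 1.52 for DDKC_9750 against DDKC_9804 (SE 0.16, adjusted p = 0.00616), 0.87 for DDKC_9750 against DDKC_9790 (SE 0.16, adjusted p = 0.0183) and 0.65 for DDKC_9790 against DDKC_9804 (SE 0.16, adjusted p = 0.0416). Its 2 libraries per sample also differed more than those of the other factors. The libraries with the higher number were lower by 0.16 on the log2 scale, and the deviance per degree of freedom was 18.8 without and 1.51 with that shift.

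PDX1 is the homeodomain factor required for the pancreas to form, and SOX9 the progenitor and duct factor. Neither transcript had its lowest level in DDKC_9804 in either condition. Sox9 lies on the plus strand at chr11:112673050-112678586. It was at 108 and 146 CPM in DDKC_9750, 130 and 149 CPM in DDKC_9790, and 300 and 392 CPM in DDKC_9804. DDKC_9804 was the highest line, by 1.45 against DDKC_9750 (SE 0.14, edgeR adjusted p = 0.00536) and by 1.30 on the log2 scale against DDKC_9790 (SE 0.14, adjusted p = 0.00743). Pdx1, on the plus strand at chr5:147206769-147212658, was at 75.1 and 67.6 CPM in DDKC_9750, 105 and 84.0 CPM in DDKC_9790, and 119 and 71.9 CPM in DDKC_9804. The lines overlapped for Pdx1, and the test between lines gave an adjusted p of 0.195 (edgeR).

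By pair of lines, 3 of the 8 factors passed between DDKC_9750 and DDKC_9790 (27.0% of all genes), 7 between DDKC_9750 and DDKC_9804 (18.5%) and 6 between DDKC_9790 and DDKC_9804 (21.3%). Both samples of DDKC_9804 were below the 4 others for 5 factors, as for 15.4% of all genes, and above them for Sox9, as for 15.7%. Both samples of DDKC_9750 were above for 4 factors (20.2% of all genes) and those of DDKC_9790 for 2 (20.5%). Both samples of DDKC_9750 or both of DDKC_9790 lay below the 4 others for 0 factors, against 38.4% of all genes. Some of these calls were lost when 1 line was left out, each time with fewer samples. Without DDKC_9750, Foxa1 did not pass between the remaining lines, with a log2 difference of 0.55. Without DDKC_9804, Sox9 (0.15), Hnf4a (0.34) and Foxa2 (0.28) did not pass, with smaller differences than over 3 lines. Without DDKC_9790, Foxa2 and Gata6 did not pass, with log2 differences of 0.90 and 1.02 between DDKC_9750 and DDKC_9804. In the fit over 3 lines these differences were about as large, at 0.89 and 1.01. The adjusted p of the lost calls ran from 0.059 for Foxa2 without DDKC_9790 to 0.44 for Sox9 (edgeR). In such bulk samples, fewer cells with a transcript and less of it per cell cannot be told apart.

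The sequences before the start sites of Hnf4a and Foxa1 are shown because these factors had wide differences between the lines and RefSeq windows with matches to the letters of a member's motif. RefSeq windows on GRCm38.p6 were at hand for 4 of the 8 genes (Pdx1, Hnf4a, Foxa1 and Foxa2). Both strands of 300 bases, from 250 before to 50 after the start, were searched for TGTTTAC (FOXA), AGATAA (for GATA factors), CAAAGTCCA (HNF4), ATCGAT (ONECUT), ACAATGG (SOX9) and TAATTA (PDX1). The 250 bases upstream are printed 5′ to 3′ on the strand of the gene, with the match in capitals. The coordinates are chr2:163506607-163506856 and chr2:163546905-163547154 (plus strand) for Hnf4a and chr12:57546112-57546361 (minus strand) for Foxa1.
Hnf4a upstream promoter: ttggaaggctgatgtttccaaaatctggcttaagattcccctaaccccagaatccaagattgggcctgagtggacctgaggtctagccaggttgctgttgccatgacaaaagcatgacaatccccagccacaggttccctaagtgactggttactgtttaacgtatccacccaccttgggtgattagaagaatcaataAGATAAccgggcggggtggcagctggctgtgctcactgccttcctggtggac
Hnf4a downstream promoter: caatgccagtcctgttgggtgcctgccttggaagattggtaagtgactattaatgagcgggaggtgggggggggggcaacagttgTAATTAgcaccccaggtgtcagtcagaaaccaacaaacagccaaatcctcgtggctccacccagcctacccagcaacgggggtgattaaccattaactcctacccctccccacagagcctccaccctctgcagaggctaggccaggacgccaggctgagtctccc
Foxa1 promoter: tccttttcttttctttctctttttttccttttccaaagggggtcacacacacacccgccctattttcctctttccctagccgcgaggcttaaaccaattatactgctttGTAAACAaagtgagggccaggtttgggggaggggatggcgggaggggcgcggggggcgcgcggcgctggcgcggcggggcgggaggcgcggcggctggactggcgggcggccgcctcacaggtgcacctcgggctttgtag

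The upstream Hnf4a promoter holds the GATA letters at -52 from the start site and the downstream one the PDX1 letters at -165. The Foxa1 promoter holds the FOXA letters on its opposite strand at -141. Of 32851 windows of this length, 11.18% hold the GATA letters, 5.291% the PDX1 letters and 3.65% the FOXA letters. The single Pdx1 window and 2 of the 3 Foxa2 windows held none of the 6, and the third Foxa2 window held the GATA letters at -183. A match is a description of the sequence and not evidence of binding.

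With rDKK3 the fold changes of the factors had both directions. With the line in the model and the libraries summed, 0 of the 8 factors passed edgeR's quasi-likelihood test after adjustment, as did 0.00659% of all genes. DESeq2 also called 0, and 0.626% of all genes. At an unadjusted p of 0.05, edgeR gave Pdx1 and Sox9, 2 of the 8 (8.53% of all genes), and DESeq2 these and Hnf4a and Foxa1, 4 of the 8 (7.04%). With the 12 libraries entered separately, which measures the spread between libraries only, 4 of the 8 passed (18.1% of all genes). Of these, Sox9 and Foxa1 were higher (7.95% of all genes) and Pdx1 and Hnf4a lower (10.1%). The median absolute log2 fold change was 0.28 for the 8 factors and 0.18 for all tested genes.

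**Figure D4:**
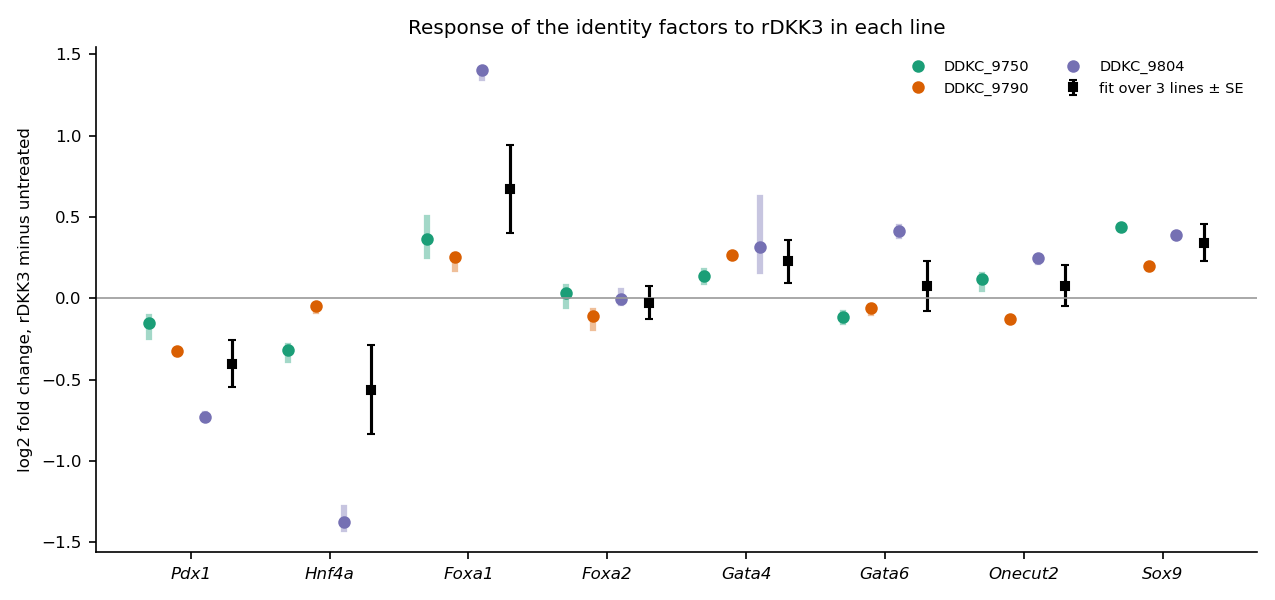
Log2 fold change of rDKK3 over untreated in each line for the 8 factors; circles are the summed libraries of a line, pale bars join the values of the lower and the higher library numbers, and black squares are the fit over 3 lines with its SE. DDKC_9804 lies farthest from 0 for Hnf4a (-1.37) and Foxa1 (1.40).

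Sox9 and Foxa1 were the factors that passed as higher with 12 libraries, and neither passed on summed counts. Sox9 in treated cells was at 1.36 times its untreated level in DDKC_9750, 1.15 times in DDKC_9790 and 1.31 times in DDKC_9804, and treated and untreated libraries overlapped in none of the lines. The log2 fold change over the 3 lines was 0.34 (SE 0.11, edgeR adjusted p = 0.578 on summed counts and 0.00268 with 12 libraries). Foxa1 stood at 1.29 times its untreated level in DDKC_9750, at 1.19 times in DDKC_9790 (94 against 99 counts, 95% counting interval of the ratio 0.891 to 1.60) and at 2.68 times in DDKC_9804 (135 against 145 counts, 2.11 to 3.41). Its log2 fold change over the lines was 0.67 (SE 0.27, edgeR adjusted p = 0.587 on summed counts and 0.0234 with 12 libraries), and 0.32 without DDKC_9804.

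Hnf4a and Pdx1 were the factors that passed as lower with 12 libraries, and neither passed on summed counts. Hnf4a in treated cells was at 80.4% of its untreated level in DDKC_9750, 96.7% in DDKC_9790 and 38.6% in DDKC_9804. In DDKC_9804 its untreated libraries were at 65.5 and 67.6 CPM and its treated ones at 26.7 and 25.1 CPM. The log2 fold change was -0.56 (SE 0.27, edgeR adjusted p = 0.624 on summed counts and 0.0467 with 12 libraries), and -0.18 without DDKC_9804. With the library number as a term beside 12 libraries, the log2 fold change of Hnf4a was -0.54 and its edgeR adjusted p 0.054.

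Pdx1 was at 90.0%, 80.0% and 60.4% of the untreated level in DDKC_9750, DDKC_9790 and DDKC_9804. Its treated libraries lay below the untreated ones of the same line throughout. The log2 fold change was -0.40 (SE 0.15, edgeR adjusted p = 0.58 on summed counts and 0.00572 with 12 libraries), and -0.24 without DDKC_9804. The spread between untreated lines, from 75.1 to 119 CPM, was wider than that between treated lines, from 67.6 to 84.0 CPM.

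Gata4 was at 1.10, 1.20 and 1.26 times its untreated level in DDKC_9750, DDKC_9790 and DDKC_9804, and the last ratio, of 21 against 48 counts, has a counting interval from 0.717 to 2.15. Its log2 fold change of 0.23 did not pass (SE 0.13, edgeR adjusted p = 0.655 on summed counts and 0.057 with 12 libraries). Gata6 had ratios of 0.924, 0.958 and 1.33 in the same order, and Onecut2 of 1.09, 0.914 and 1.19. Their fold changes over the lines, 0.07 (SE 0.15) and 0.08 (SE 0.13), did not pass (edgeR adjusted p = 0.894 and 0.868). Foxa2 had ratios of 1.02, 0.927 and 0.999 and a log2 fold change of -0.03 (SE 0.10, edgeR adjusted p = 0.948).

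Counted by direction alone, Sox9, Foxa1 and Gata4 were higher in all 3 lines, as were 14.2% of all genes, and Pdx1 and Hnf4a were lower in all 3, as were 18.2%. Foxa2, Gata6 and Onecut2 differed in direction between lines. With 3 lines the smallest p of an exact two-sided sign-flip permutation test is 0.25, and the 5 factors with 1 direction reached it. A test of a line-dependent response on the 12 libraries (edgeR, line by treatment) passed for Pdx1, Hnf4a, Foxa1 and Gata6, 4 of 8, against 49.3% of all genes, a share near that of the factors.

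Other genes of the same families also differed between lines. Of 12 listed genes 8 were tested, and 6 passed the test between lines (35.3% of all genes). Gata5, another endodermal GATA gene, was at 120 and 90.8 CPM in DDKC_9750, 53.9 and 64.4 CPM in DDKC_9790 and 10.1 and 10.8 CPM in DDKC_9804, the same order as Gata4. Gata3, a GATA factor of lymphoid and several epithelial tissues, had another order, at 0.366 and 0.874 CPM in DDKC_9750, 17.0 and 18.6 CPM in DDKC_9790 and 13.4 and 32.9 CPM in DDKC_9804. Hnf4g, the paralog of Hnf4a, reached at most 1.63 CPM.

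In the family list 0 genes passed for rDKK3 on summed counts, and 1 was higher (7.95% of all genes) and 3 lower (10.1%) with 12 libraries. Onecut3, a paralog of Onecut2, was at 143 and 67.2 CPM in DDKC_9750, 49.1 and 42.6 CPM in DDKC_9790 and 45.0 and 23.5 CPM in DDKC_9804 (log2 fold change -0.76, edgeR adjusted p = 0.00265 with 12 libraries). Foxa3 fell by 1.26 (adjusted p = 0.0135) and Gata3 was higher by 0.77 (adjusted p = 0.0211) in the same edgeR fit. On summed counts these 3 genes had adjusted p values from 0.578 to 0.584.

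Of 22 other progenitor and foregut factors 14 were tested, and 5 passed between lines, a share near the 35.3% of all genes. DDKC_9804 was the highest line for 9 of the 14 (31.2% of all genes) and DDKC_9750 for 4 (35.0%). Ptf1a, the acinar and progenitor factor whose locus carries Cre, had 0 counts in all 12 libraries. Sox2, a foregut and stomach factor, had 0 counts in both samples of DDKC_9750 and stood at 10.9 and 10.0 CPM in DDKC_9790 and at 21.1 and 28.2 CPM in DDKC_9804. Cdx2, the intestinal homeobox factor, was at 2.19 and 0.68 CPM in DDKC_9750, 25.1 and 17.8 CPM in DDKC_9790 and 27.3 and 17.3 CPM in DDKC_9804. DDKC_9750 was therefore the line low in both.

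With rDKK3, 0 of these 14 passed on summed counts, while 0 were higher (7.95% of all genes) and 5 lower (10.1%) with 12 libraries. Among the 5 were Hhex, an early foregut factor (log2 fold change -0.47, edgeR adjusted p = 0.00142), Cdx2 (-0.69, adjusted p = 0.00558) and Hes1, a Notch effector (-0.29, adjusted p = 0.00321). Rfx6, a gut and islet factor also among them, had 54 counts in untreated DDKC_9804 and 0 in the 5 other samples. The list's median log2 fold change was -0.15, against -0.01 for all genes.

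Listed genes of stomach, gut and liver were read against the 35.3% of all genes that passed between lines. Whether the 8 factors drive them in these lines was not tested. Of 22 listed foregut and classical subtype genes 15 were tested, and 13 passed. Of 18 listed HNF4A-linked liver and gut genes 10 were tested, and 8 passed. DDKC_9750 was the highest line for 12 of the 15 and for 9 of the 10, as for 35.0% of all genes. The filter on low counts also keeps genes expressed in a single line. Muc5ac, for example, had 174 and 38 counts in DDKC_9750 and at most 2 in any other sample. For such genes a difference between lines, and which line was highest, followed in part from the filter, so these counts are a description. Tff2, a gastric trefoil peptide, was at 1354 and 1608 CPM in DDKC_9750, 2.88 and 2.87 CPM in DDKC_9790 and 1.45 and 0.821 CPM in DDKC_9804. Cldn18, a stomach claudin, was at 253 and 175 CPM in DDKC_9750 and at most 0.493 CPM in the others. Apob, the apolipoprotein of liver and gut lipoproteins, was at 539 and 646 CPM in DDKC_9750 and between 2.22 and 6.02 CPM in the others.

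**Figure D5:**
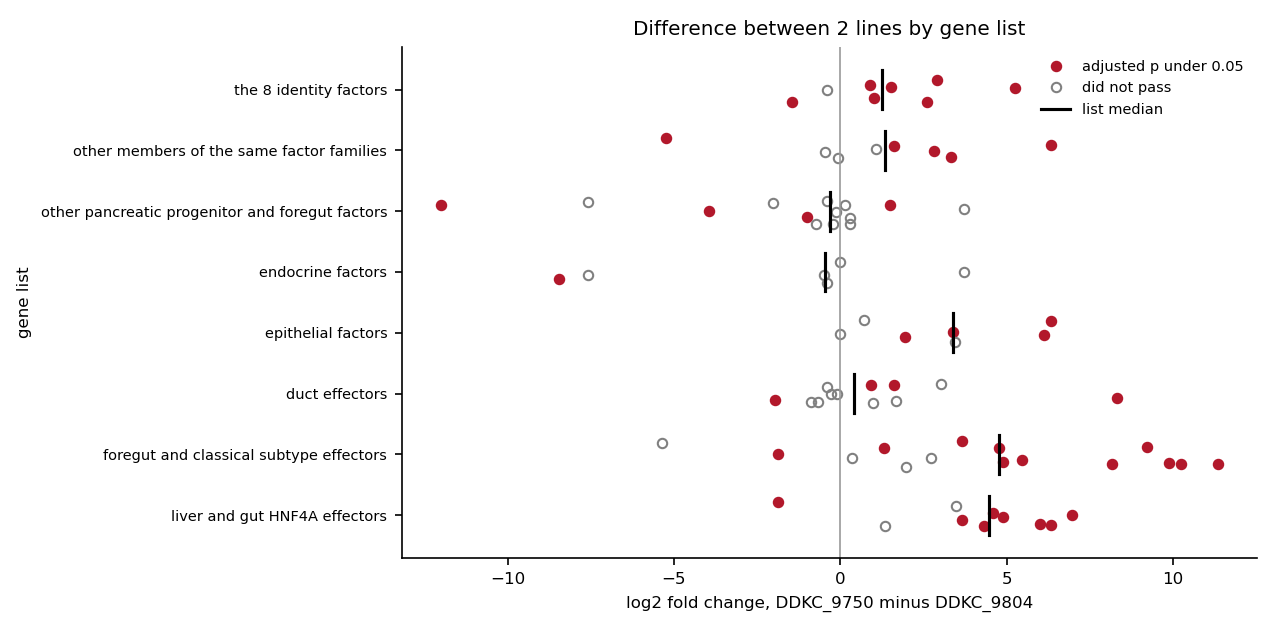
Log2 fold change of DDKC_9750 minus DDKC_9804 for each tested gene of 8 lists; red points passed an edgeR adjusted p of 0.05, open points did not, and black bars are list medians. The fitted values of genes with 0 counts in a line are no bound on their size. For the foregut and classical subtype genes 10 passed as higher and 1 as lower in DDKC_9750, where some were tested only through their counts in DDKC_9750.

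Vil1, the microvillus protein villin, had the line order of Hnf4a, at 55.1 and 46.1 CPM in DDKC_9750, 46.4 and 39.1 CPM in DDKC_9790 and 2.54 and 0.739 CPM in DDKC_9804. Cdh17, an intestinal cadherin, was lowest in DDKC_9750, with 38.7 and 10.8 CPM there, 176 and 82.0 CPM in DDKC_9790 and 108 and 56.1 CPM in DDKC_9804. Cdh17 fell with rDKK3 in the 12 library fit (log2 fold change -1.23, edgeR adjusted p = 0.000211) and not on summed counts (adjusted p = 0.578). In this fit 2 of the 15 foregut genes were higher and 2 lower, and 0 of the 10 HNF4A-linked genes were higher and 2 lower, beside 7.95% of all genes higher and 10.1% lower.

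The genes of duct cells, in which SOX9 is found in the adult pancreas, ranged from Spp1, a secreted phosphoprotein at 4485 to 31968 CPM, to the secretin receptor gene Sctr with 0 counts. Spp1 was highest in DDKC_9804, as Sox9 was, and was the only 1 of the 12 tested duct genes to be so (31.2% of all genes), while 5 were highest in DDKC_9750 and 6 in DDKC_9790. Of the 12 tested duct genes 10 passed between lines (35.3% of all genes), 0 passed for rDKK3 on summed counts, and 1 was higher (7.95%) and 6 lower (10.1%) with 12 libraries, while Sox9 was higher. Krt7 had a log2 fold change of -0.85 (edgeR adjusted p = 0.00358), Aqp1, a water channel, of -0.80 (adjusted p = 0.000357) and Krt19 of -0.55 (adjusted p = 0.00011) in that fit. Muc1, a membrane mucin, was the gene with the higher level (0.47, edgeR adjusted p = 0.0163), at 161 and 272 CPM in DDKC_9750 and at most 0.821 CPM in DDKC_9804.

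The pattern of each factor over the 6 samples was compared with the other tested protein-coding genes, as a description over samples that share lines. Foxa2 and Gata6 were the most alike pair among the 8 (Pearson r = 0.971 of log2 CPM), followed by Hnf4a and Gata4 (0.936) and Onecut2 and Gata4 (0.917). The closest factor to Pdx1 was Sox9 (0.148). Among 12418 other genes, the closest to Hnf4a was Vrk3 (r = 0.998), to Gata4 Baiap2l2 (0.999), to Foxa1 Ppat (0.997), to Foxa2 Tmem141 (0.997) and to Onecut2 Nynrin (0.998). Acvr1 was closest to Sox9 (0.994), Psrc1 to Gata6 (0.995) and Pde6d to Pdx1 (0.991). With r of at least 0.95 there were 220 genes for Hnf4a and 17 for Pdx1, the highest and the lowest number among the 8.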

How the data were processed

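Bulk RNA was measured in 12 libraries of 3 lines. Per the study's methods and the labels, the authors mapped read pairs of 50 bases to GRCm39 with STAR 2.7.9a and counted exons strand-specifically on GENCODE M32 genes with GenomicAlignments. They deposited raw counts per gene, without normalization. The submitters' processing notes also name Picard 2.19.2, DESeq2 1.38.0 and R 4.2.2. Of 57278 rows, 92 spike-in rows with 0 counts were left out.

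The 2 libraries of a line and condition were summed. edgeR 4.0.16 in R 4.3.3 (quasi-likelihood test, TMM, filterByExpr, line and treatment in the model, Benjamini-Hochberg adjustment over 15165 genes, threshold 0.05) gave the tests, with SE derived from the F statistic. Log2 CPM used a prior count of 2. Line differences used the same fit, and line-dependent responses an interaction over the 12 libraries, because the summed samples leave no residual degrees of freedom for it. Lengths are those of Ensembl canonical transcripts in GENCODE M39 on GRCm39. Exact intervals cover counting error only, since reads carry no molecular identifiers. The floor of 3 counts equals 0.122 to 0.785 CPM per library. Fits were tested on simulated data.

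The line pairs treated with untreated samples: deviations from the condition means correlated at 0.822, 0.874 and 0.805 within lines and at -0.417 on average between lines. The negative value between lines follows from the centering, since the deviations of the lines in a condition cancel out, and adds nothing to the values within lines. Alternatives covered DESeq2 1.42.0, RLE, no filter, single lines left out, thinning to 9898461 counts, no line term, and library numbers.

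The 8 factors and the gene lists were chosen with earlier results of these data known. Named list genes are those that passed for rDKK3 in the summed or 12 library fit (up to 3 by size), the 3 most abundant and the 3 with the widest range over lines, a selection of which is printed. Some other listed genes are named for their low counts in some or all lines. Concentration and duration of rDKK3 are not given for the RNA samples in the sources used here. Some alleles and listed genes are not reported here.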

Additional observations from a re-analysis of the deposited data

Results flagged for a closer look

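In the edgeR interaction test of line by treatment, 49.3% of all tested genes passed, and 4 of the 8 factors did, a share near that of all genes. This test uses the 12 libraries as replicates and measures only the spread between libraries. The values of the 4 are given because their responses differed between lines in it. Hnf4a had an adjusted p of 8.15e-07 in it, with log2 fold changes of -0.32 in DDKC_9750, -0.05 in DDKC_9790 and -1.37 in DDKC_9804. Pdx1 had an adjusted p of 0.000179 in the same edgeR test, with log2 fold changes of -0.15, -0.32 and -0.73 in that order. For Foxa1 the edgeR adjusted p was 0.00126 and the log2 fold changes were 0.36, 0.25 and 1.40. Gata6 had an edgeR adjusted p of 0.00214, with -0.11 and -0.06 in DDKC_9750 and DDKC_9790 and 0.41 in DDKC_9804. In DDKC_9804 each of the 4 had its largest change in size. Depth differed there, with 12214580 counts summed over the treated and 36140718 over the untreated libraries, and about as much in DDKC_9750, with 9914553 and 28824342, where the 4 changed less, and its part in these values was not tested.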

How the results depend on the processing

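On summed counts with 3 lines, edgeR called 1 of all genes for rDKK3, 1294 having an unadjusted p under 0.05, and after thinning to equal depth 1 again, with 1289 unadjusted. With 12 libraries it called 2744, with the library number series as a further term 3124, with DESeq2 95, without the filter on low counts 90, and with the lower library numbers alone 6. With no replicate block it called 0 on summed counts (94 unadjusted) and 0 with 12 libraries (1151 unadjusted). Leaving out each line gave 0 to 0, with 1796, 649 and 972 unadjusted without DDKC_9750, DDKC_9790 and DDKC_9804. Between lines 5348 genes passed, 5155 after thinning, 11790 with 12 libraries, and 1332 (without DDKC_9790) to 5013 with a line left out. Leaving out a line leaves fewer samples, and the causes of these changes in count were not tested.

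Of the 8 factors, the sign of the rDKK3 log2 fold change reversed for Foxa2 (0.034 without DDKC_9790, range -0.051 to 0.034 over lines left out, and 0.0027 after thinning), Gata6 (-0.088 without DDKC_9804, range -0.088 to 0.17, and -0.0010 with no replicate block in 12 libraries) and Onecut2 (-0.0051 without DDKC_9804, range -0.0051 to 0.20). None of these passed on either side, and the replicate block changed no other sign. The signs of the other 5 factors held in the 13 alternatives. The test between lines passed for Pdx1 with 12 libraries (edgeR adjusted p = 0.00478). With the library number series as a term, the line-dependent response also passed for Sox9 (edgeR adjusted p = 2e-05) and Onecut2 (4.3e-17), in a fit where 9388 of 15165 genes passed, and without the filter for Onecut2 (0.000209), where 8269 of 29823 did. In DDKC_9804, Gata4 rests on 8 counts in its shallowest library.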

Other observations

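Of 14 endocrine factors 6 were tested, and 5 had 0 counts in all libraries. Insm1, a zinc finger factor of endocrine differentiation, was in DDKC_9804 at 207 CPM untreated and 179 CPM treated, against 2.75 and 3.84 CPM in DDKC_9790 and 0.798 and 0 CPM in DDKC_9750. DDKC_9804 exceeded DDKC_9790 by 5.87 on the log2 scale (edgeR adjusted p = 0.00488). Pax6, an islet and eye factor, had 62 and 57 counts in DDKC_9790 and 0 in the 4 other samples. Glis3, a factor of beta cells and ducts, was present in every line, from 87.2 to 195 CPM. It was higher with rDKK3 with 12 libraries (log2 fold change 0.36, edgeR adjusted p = 0.0035) and did not pass on summed counts (adjusted p = 0.578).

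Among the factors of epithelial differentiation, 7 of 14 were tested and 5 passed between lines (35.3% of all genes). The untested ones, Grhl1, Grhl2, Grhl3, Ovol1, Ovol2, Esrp1 and Elf5, were nearly absent, with at most 13 counts in any summed sample. Ehf, an ETS factor of simple epithelia, was at 115 and 379 CPM in DDKC_9750, 51.1 and 45.2 CPM in DDKC_9790 and 2.65 and 2.63 CPM in DDKC_9804. Tfcp2l1, a grainyhead family factor, was at 76.0 and 162 CPM in DDKC_9750 and at most 2.75 CPM in the other lines. Klf5, a zinc finger factor of gut and pancreatic epithelium, ranged from 227 to 362 CPM and did not pass between lines (edgeR adjusted p = 0.0976). With rDKK3, 0 of the 7 passed in edgeR on summed counts (0.00659% of all genes) or with 12 libraries (18.1%). The acinar factors Rbpj and Xbp1, which many cell types also express, were the 2 of 6 tested from their list, and neither passed between lines or for rDKK3, beside the same shares of all genes.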
